A study of Saccharomyces cerevisiae with 6 samples.

Results

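The 81 nuclear genes whose symbol starts with SNR and a number were examined in a chromatin immunoprecipitation data set from budding yeast, Saccharomyces cerevisiae, out of 6431 nuclear genes in the table. These genes encode small nucleolar RNAs (snoRNAs) and, because the symbol rule also matches them, spliceosomal small nuclear RNAs (snRNAs). They were divided by annotation into 51 independently transcribed snoRNA genes, 17 clustered snoRNA genes in 5 loci, 8 intronic snoRNA genes and 5 entries for spliceosomal snRNAs (SNR6, SNR7-L, SNR7-S, SNR14 and SNR19). A clustered gene had another snoRNA gene on the same strand less than 500 bp away with no other gene between them. An intronic gene lay inside a protein-coding gene on the same strand. By RNA type, 47 of the 76 snoRNA genes were box C/D and 29 were box H/ACA. All 17 clustered genes were box C/D, whereas the independent genes comprised 24 box C/D and 27 box H/ACA genes and the intronic genes 6 and 2.

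By way of background, box C/D snoRNAs guide 2′-O-methylation of ribosomal RNA and box H/ACA snoRNAs guide pseudouridylation, each in a particle with its own core proteins, and a few members of both types act in cleavage of the ribosomal RNA precursor. In budding yeast most snoRNA genes have their own RNA polymerase II promoter, clustered genes are cut from a shared precursor by the nuclease Rnt1, and intronic snoRNAs are released from the spliced intron of their host. Transcription ends by the Nrd1, Nab3 and Sen1 pathway rather than by the route used for most messenger RNAs. Rpd3 is a histone deacetylase that acts as a transcriptional co-repressor in large complexes.

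Anti-FLAG M2 immunoprecipitates were sequenced from 3 samples of the wild-type strain OAy1102 (WT) and 3 samples of the strain YHy17, genotype rpd3Δ. All cultures were grown in rich medium (YEPD) at 23 °C and held in G1 with about 5 nM of the mating pheromone α-factor for about 4 h, then fixed with 1% formaldehyde. The labels name neither the FLAG-tagged protein nor the other alleles of the strains, and they do not say whether samples came from separate cultures or whether a strain is 1 clone, so the p-values given here refer to the spread among these 6 samples, part of which may be technical. No input library was analysed here, so signal could not be set against unprecipitated DNA.

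Summed bin counts were 3987250 to 5907739 per sample in WT and 4888453 to 6785491 in rpd3Δ. The ribosomal DNA (rDNA) held 37.1% to 49.7% of them in WT and 56.0% to 63.97% in rpd3Δ, leaving a median of 7 to 12 counts per 50 bp bin over the genome. Over RPD3 itself, signal relative to the mean outside the rDNA was 0.854 ± 0.0955 for WT and 0.0982 ± 0.0214 for rpd3Δ (SD, n = 3 each). No read was counted in any sample over BAR1 (0 counts), the gene of an α-factor protease. The snoRNA and snRNA genes were short, with a median of 136 bp (range 78 to 1004 bp) against 1200 bp for protein-coding genes. Their bodies therefore covered 1 to 20 bins and held a median of 51.7 counts per sample, and the 500 bp windows upstream held a median of 155 counts.

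Signal at snoRNA genes stood above its surroundings in both genotypes, and the clustered genes carried the highest of it. Signal was expressed here as the mean count per bin of a window divided by the median bin of the surrounding 20 kb in the same sample, a measure that needs no scaling between samples. The median over the 17 clustered gene bodies was 3.001 ± 0.444 times this local median in WT and 3.20 ± 0.526 in rpd3Δ (SD over samples, n = 3). The median over the 51 independent genes was 1.84 ± 0.282 in WT and 1.77 ± 0.0922 in rpd3Δ. Over the 8 intronic genes it was 1.58 ± 0.174 in WT and 2.06 ± 0.472 in rpd3Δ, and over the 5 spliceosomal entries 1.61 ± 0.212 and 1.38 ± 0.443. The ranges of the WT and rpd3Δ samples overlapped in all 4 classes. In the intronic class the third rpd3Δ sample, at 1.55, lay within the WT range of 1.48 to 1.78, while the other rpd3Δ samples, at 2.17 and 2.47, lay above it.

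The same measure gave 1.49 ± 0.0466 in WT for the median tRNA gene body and 0.999 ± 0.00215 for the median protein-coding gene body. Averaged over all 6 samples, 40 of 76 snoRNA gene bodies (52.6%) reached 2 times the local median, against 17.9% of tRNA genes and 4.12% of protein-coding genes. By class these were 15 of 17 clustered, 21 of 51 independent and 4 of 8 intronic genes, and 0 of the 5 spliceosomal entries. With the median of the surrounding 10 kb instead, they were 15, 17, 1 and 1, so the intronic count rested on the width of the background. By RNA type they were 28 of 47 box C/D genes and 12 of 29 box H/ACA genes. Short windows scatter more than long ones, so shares over a threshold are not directly comparable between genes of different length. The upstream windows had the same length for every gene. In them, 14 of 17 clustered, 10 of 51 independent (19.6%) and 1 of 8 intronic genes reached 2 times the local median. The shares were 21.9% for tRNA genes and 12.1% for all genes. In WT the median upstream window was at 1.53 for independent genes and 1.52 for tRNA genes. Upstream windows of clustered genes can cover neighbours in the same cluster, so their count partly repeats the signal of the bodies.

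**Figure D1:**
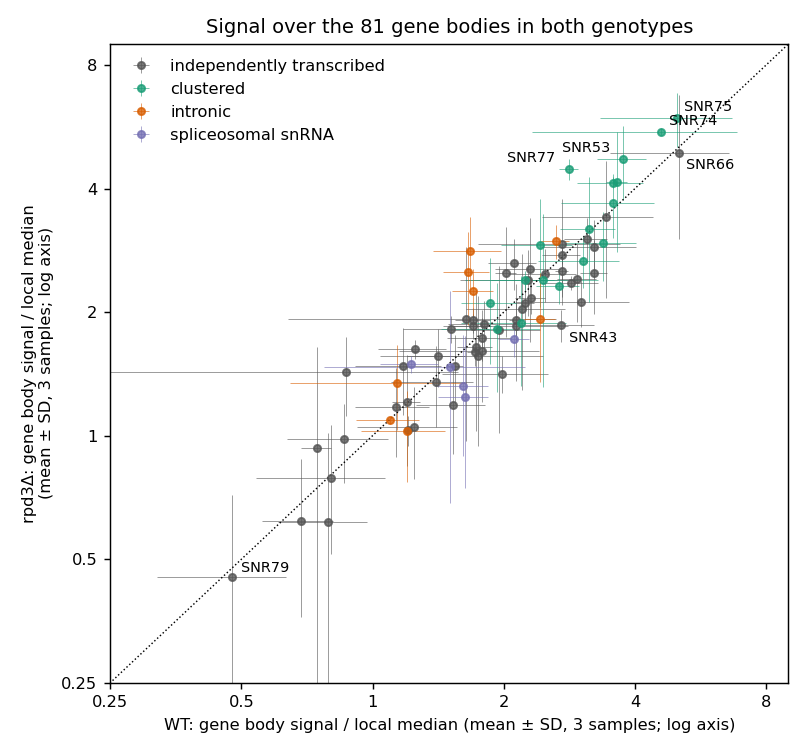
Mean signal over each of the 81 gene bodies in WT (horizontal) and rpd3Δ (vertical) relative to the local 20 kb median, both on log axes, with bars of ± SD over 3 samples that are cut at the plot edge and a dotted line of equality. Points lie along the line, with the clustered genes SNR75 and SNR74 and the independent gene SNR66 at the top and SNR79 at the bottom.

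The 10 gene bodies with the highest signal comprised 8 clustered and 2 independent box C/D genes. SNR75, a guide for methylation of the large ribosomal RNA in the middle of the cluster of 7 genes, had scaled counts per bin of 66.5, 49.4 and 35.6 in WT samples 1 to 3 and of 58.9, 49.2 and 52.8 in rpd3Δ samples 1 to 3. Scaled counts were brought to a common effective library size, the mean over the 6 samples. The third WT sample was the lowest and the first WT sample the highest, and the groups overlapped. SNR74, its neighbour, had 64.6, 53.3 and 21.6 in WT and 46.2, 46.6 and 51.4 in rpd3Δ, with the third WT sample again well below the other 5. SNR66, an independent gene, had 36.2, 40.7 and 21.6 in WT and 46.2, 31.1 and 23.0 in rpd3Δ, and its groups overlapped too.

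Relative to the local median these bodies reached 5.00 ± 1.67 in WT and 5.93 ± 0.890 in rpd3Δ for SNR75, and 5.04 ± 1.54 and 4.90 ± 1.88 for SNR66 (SD, n = 3). SNR66 lies next to NME1, the RNA subunit of RNase MRP, and its upstream window (chromosome XIV, 585590 to 586089, R64) covers most of NME1, whose own body was at 2.88 ± 0.820 and 2.74 ± 0.812 times the local median. Signal of these adjacent genes cannot be told apart. The other high genes were SNR53, SNR128, SNR73, SNR77, SNR76, SNR40 and SNR55, with means over the 6 samples of 3.17 (SNR55) to 4.23 (SNR53). Each difference between neighbours in this order was smaller than the larger SD of the genes compared.

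At the other end, 6 independent snoRNA genes had a mean below their local median. They were SNR79 at 0.464, SNR63 at 0.652, SNR58 at 0.703, SNR9 at 0.796, SNR68 at 0.837 and SNR60 at 0.920 times it over the 6 samples. All but SNR9 are box C/D genes. Single samples of these genes reached above 1, as in SNR68, with 1.67, 0.889 and 0.238 in the rpd3Δ samples.

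For a second view of the same signal, binding regions were defined from all 6 samples added together, ignoring genotype. A region was a stretch of at least 200 bp in which the 500 bp running mean reached 2 times the local median. Of 81 genes, 47 (58.0%) overlapped one of the 867 regions, against 28.4% of tRNA genes, 15.7% of protein-coding genes and 16.8% of all genes. All 17 clustered genes did so, in 5 regions of 1 per cluster, with 26 of 51 independent genes, 3 of 8 intronic genes (SNR38, SNR44 and SNR54) and 1 of 5 spliceosomal entries (SNR19). Where a share of at least 0.5 of the gene had to be covered, the count was 43 of 81 (53.1%), against 27.3% of tRNA genes and 5.64% of all genes. Short genes reach that share more easily than long ones, so the value for all genes is not a like comparison. With regions of 3 times the local median, 15 of 81 (18.5%) overlapped one, against 8.73% of tRNA genes and 6.45% of all genes.

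The 47 genes shared 35 distinct regions whose peaks ran from 2.41 to 7.05 times the local median, with a median of 3.42. The highest peak lay over the SNR78 to SNR72 cluster (chromosome XIII, 297151 to 298700). It was followed by the regions of SNR69 at 6.42, the SNR57, SNR55 and SNR61 cluster at 6.05, SNR13 at 5.96 and SNR66 at 5.95. SNR69 and SNR13 are single genes, and their peaks were above those of 4 and 3 of the 5 clusters.

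The signal was not confined to the RNA-coding stretch. Averaged over the clustered genes it was 2.23 ± 0.296 times the local median in WT at 500 bp before the 5′ end, 2.96 ± 0.489 at the 5′ end and 2.84 ± 0.538 at 500 bp after it, and it had returned to 0.939 ± 0.0421 at 1500 bp after it (SD, n = 3). In rpd3Δ the values at the same places were 2.41 ± 0.121, 3.22 ± 0.384, 3.05 ± 0.518 and 0.845 ± 0.0690. Because neighbours in a cluster lie within this distance, their profiles repeat the same signal.

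For the independent genes the average was 1.99 ± 0.266 in WT and 1.91 ± 0.258 in rpd3Δ at the 5′ end, and 1.05 ± 0.103 and 1.13 ± 0.0326 at 1500 bp before it. The highest point of the summed samples was located within 1000 bp of each gene on either side. It lay downstream of the body in 27 of the 51 independent genes, upstream in 17 and inside the body in 7. The median independent body was 183 bp, so the flanks made up most of the stretch searched, and they also hold neighbouring genes. No share expected from these lengths was computed, so the counts do not show where the signal sits relative to a gene. Among clustered genes the highest point was downstream in 11, upstream in 4 and inside in 2. The genes of the cluster from SNR78 to SNR72 all shared the same highest point, so the clustered counts partly record gene order within a cluster. Among intronic genes the highest point was downstream in 5 and upstream in 3. The intronic average at the 5′ end of the snoRNA was 1.60 ± 0.109 in WT and 2.002 ± 0.0909 in rpd3Δ, and the 3 samples of 1 genotype did not overlap those of the other at this point, for which no test was made.

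**Figure D2:**
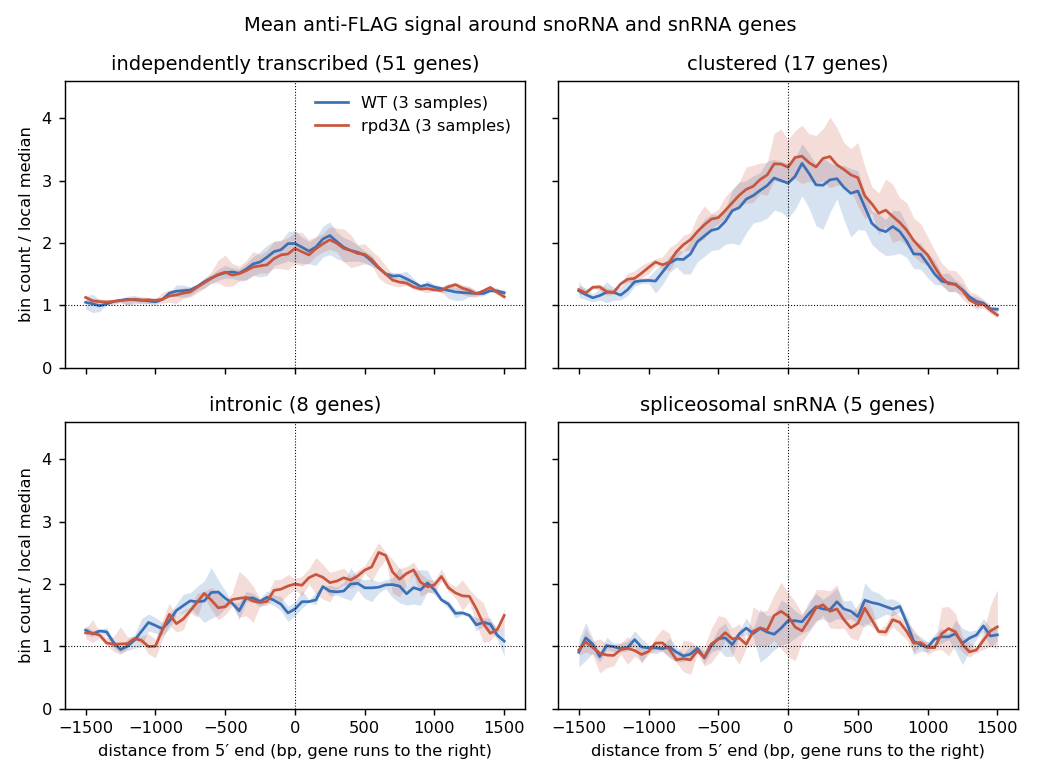
Average signal relative to the local 20 kb median (vertical) against distance from the 5′ end in bp (horizontal) for the 4 classes, with lines for the mean of 3 samples and bands for the lowest and highest sample. The clustered average rises to about 3 times the local median in both genotypes, the independent average to about 2, and the intronic average is broad, with rpd3Δ above WT at the 5′ end and around 600 bp after it.

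The main comparison asked whether signal at these genes differed between rpd3Δ and WT. By edgeR's quasi-likelihood test, Benjamini-Hochberg adjusted over all 6346 bodies tested with a threshold of 0.05, 0 of the 80 snoRNA and snRNA bodies tested were higher and 0 lower. Over all gene bodies 3.73% were called higher and 3.06% lower in rpd3Δ, 6.79% in either direction. At an unadjusted p under 0.05, 5 were higher (SNR6, SNR24, SNR35, SNR44 and SNR77) and 2 lower (SNR37 and SNR43), 8.75% of the 80, against 20.3% of all gene bodies. DESeq2 called 0 in either direction, with 4 higher and 2 lower unadjusted. The median log2 fold change was 0.01, the same as the median over all gene bodies, and the individual values ran from -0.52 to 0.76. All fold changes are relative to the background outside the rDNA: with library size set by the total signal, rDNA included, the median over all gene bodies shifted to -0.50 and that over upstream windows to -0.57.

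The precision at these short genes was lower than elsewhere. The median standard error was 0.246 on the log2 scale, against 0.142 over all gene bodies. Of the 288 protein-coding genes of up to 300 bp, whose median standard error was 0.256, 1 was called higher and 16 lower, and of 251 tRNA gene bodies 1 was called higher and 1 lower. The absence of calls does not show equal signal, and its cause was not tested. Beyond the test, 8 bodies had every rpd3Δ sample above every WT sample and 3 had every one below, against 13.1% and 10.2% of all bodies. SNR79, with a mean under 10 counts, was left out of the test. SNR7-L and SNR7-S are overlapping forms of the U5 snRNA gene whose signal cannot be told apart.

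Among the independent genes, the 3 with an unadjusted p under 0.05 are box H/ACA genes, which guide pseudouridylation. SNR37 had 26.7, 31.7 and 28.1 scaled counts per bin for WT and 26.0, 20.5 and 20.8 in rpd3Δ, with rpd3Δ below WT in every sample, a log2 fold change of -0.36 ± 0.142 (SE) and an adjusted p of 0.119 in edgeR's quasi-likelihood test. Without the first rpd3Δ sample SNR37 was called lower. SNR35 had 20.9, 21.4 and 18.6 in WT against 28.3, 26.3 and 24.4, with rpd3Δ above WT in every sample, and 0.37 ± 0.175 (adjusted p = 0.217). SNR43 had 19.8, 24.0 and 16.2 in WT against 13.7, 12.4 and 16.6, where the third sample of each group overlapped the other group, and -0.52 ± 0.221 (adjusted p = 0.1495).

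SNR77, a clustered box C/D gene, had the lowest unadjusted p among clustered genes, with 27.9, 28.0 and 29.9 scaled counts per bin for WT and 35.4, 41.4 and 42.6 in rpd3Δ. Its groups did not overlap, and its log2 fold change was 0.47 ± 0.215 (SE) with an adjusted p of 0.191 in edgeR's quasi-likelihood test. SNR78, the gene before it in the cluster, had 28.0 ± 2.65 scaled counts per bin for WT against 21.0 ± 1.15 for the deletion strain (SD, n = 3). Here every rpd3Δ sample lay below every WT sample, the opposite direction.

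Class by class, the median log2 fold change of the bodies was -0.01 for independent genes (25 of 50 positive), 0.10 for clustered genes (12 of 17 positive), 0.35 for intronic genes (5 of 8 positive) and -0.19 for the spliceosomal entries (1 of 5 positive). For the RNA types it was -0.02 for box H/ACA and 0.07 for box C/D. No difference between classes was tested, since members of a class are not replicates. Of the tested bodies, 7 lie on chromosome XII, which carries the rDNA. Their median was 0.18 against 0.00 for the other 73, and 6 of the 7 were positive.

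**Figure D3:**
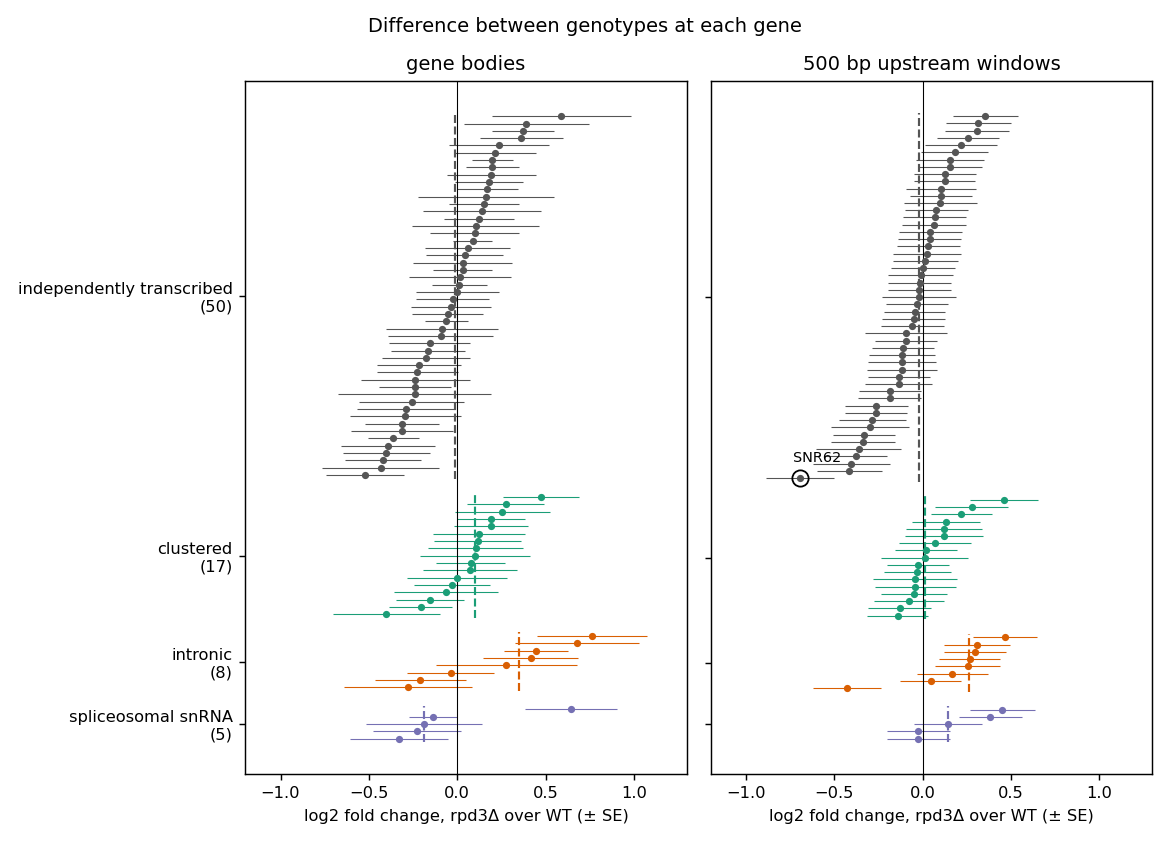
Log2 fold change of rpd3Δ over WT with its SE for each gene body (left, 80 tested) and each 500 bp upstream window (right, 81 tested), sorted within classes, with dashed lines for the class medians. Values scatter around 0 in every class, the intronic medians lie at 0.35 and 0.26, and the circled upstream window of SNR62 at -0.69 is the only one past the threshold. Upstream windows of intronic genes lie wholly or partly inside the host gene.

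Upstream windows gave 1 call. Of 81 windows, 0 were higher and 1 was lower (SNR62), against 0.314% and 1.27% of all 6373 windows tested, 1.58% in either direction. At an unadjusted p under 0.05, 4 were higher (SNR6, SNR19, SNR24 and SNR57) and 4 lower (SNR18, SNR43, SNR62 and SNR68), 9.88% of the 81 against 13.97% of all windows, and DESeq2 called 0. Non-overlapping groups occurred in 10 windows with rpd3Δ higher and 5 with rpd3Δ lower, against 5.71% and 11.9% of all windows. The median log2 fold change was 0.00, beside -0.06 for all upstream windows. By class it was -0.02 for independent, 0.01 for clustered, 0.26 for intronic (7 of 8 positive) and 0.14 for spliceosomal windows. The upstream windows of intronic genes lie wholly or partly inside the host gene, so they largely reread its body. The hosts' own upstream windows had a median of -0.01.

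SNR62 is an independent box C/D gene on chromosome XV (409765 to 409864, R64). Its upstream window (409865 to 410364) held 10.7, 11.2 and 12.2 scaled counts per bin for WT and 6.60, 7.15 and 7.31 in rpd3Δ. Every rpd3Δ sample lay below every WT sample, and the log2 fold change was -0.69 ± 0.194 (SE, adjusted p = 0.0350 in edgeR's quasi-likelihood test). Relative to the local median the window was at 1.38 ± 0.199 in WT and 0.980 ± 0.103 in rpd3Δ (SD, n = 3), so it was never among the enriched windows. The body of SNR62 did not pass the test, with a log2 fold change of -0.31 ± 0.288 and an adjusted p of 0.582. The call depended on every sample: leaving out any 1 of the 6 raised the adjusted p to between 0.0600 (without the third rpd3Δ sample) and 0.194 (without the second WT sample), and DESeq2 gave 0.0897. Over all 17 alternatives it ran from 3.17e-05 to 0.337, and 5 kept the call. The lowest came with library size set by the total signal, where 3330 of all 6373 windows were called lower.

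The upstream window of SNR69, an independent box C/D gene, had the highest level of any independent gene upstream, at 4.81 ± 0.822 times the local median in WT and 4.29 ± 1.42 in rpd3Δ (SD, n = 3). Its scaled counts per bin were 39.3, 42.4 and 29.7 for WT and 39.1, 22.3 and 22.7 for rpd3Δ. The first rpd3Δ sample lay among the WT samples and the others below them, and without that sample the window was called lower. In all 6 samples it did not pass, with a log2 fold change of -0.40 ± 0.217 (SE, adjusted p = 0.401 in edgeR's quasi-likelihood test).

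Over whole clusters, the WT and rpd3Δ samples overlapped at all 5 loci. The cluster of 7 genes from SNR78 to SNR72 (chromosome XIII, 297278 to 298651) had 40.6, 39.1 and 28.2 scaled counts per bin in the WT group against 38.6, 35.3 and 35.4 in rpd3Δ. The third WT sample was the lowest of all 6 and the groups overlapped (two-sided exact permutation p = 1.0). The first WT sample stood highest over the middle of the cluster, where SNR75 and SNR74 lie, and the third WT sample lowest.

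The remaining clusters are given by their means. The pair SNR67 and SNR53 on chromosome V had 26.2 ± 3.74 scaled counts per bin in the WT group against 29.7 ± 5.01 in rpd3Δ, an exact permutation p of 0.4 with n = 3 per group. The pair SNR190 and SNR128 on chromosome X had 31.5 ± 3.62 and 31.7 ± 5.70 (exact permutation p = 1.0). SNR128 (U14) is essential and acts in processing of the small-subunit RNA besides guiding a methylation.

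The 3 genes SNR57, SNR55 and SNR61 on chromosome XII had 32.9 ± 2.91 in WT and 35.4 ± 5.82 in rpd3Δ, an exact permutation p of 0.6, and SNR41, SNR70 and SNR51 on chromosome XVI, the lowest cluster, had 17.3 ± 2.72 and 17.6 ± 0.847 (exact permutation p = 1.0). With 3 samples against 3 the smallest two-sided p possible is 0.1. Within clusters the genes were unequal: in the pair on chromosome V, SNR53 was at 3.75 ± 0.476 times the local median in WT and SNR67 at 1.86, and in the cluster on chromosome XII SNR61 was at 1.92 and SNR55 at 3.14 ± 0.454.

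**Figure D4:**
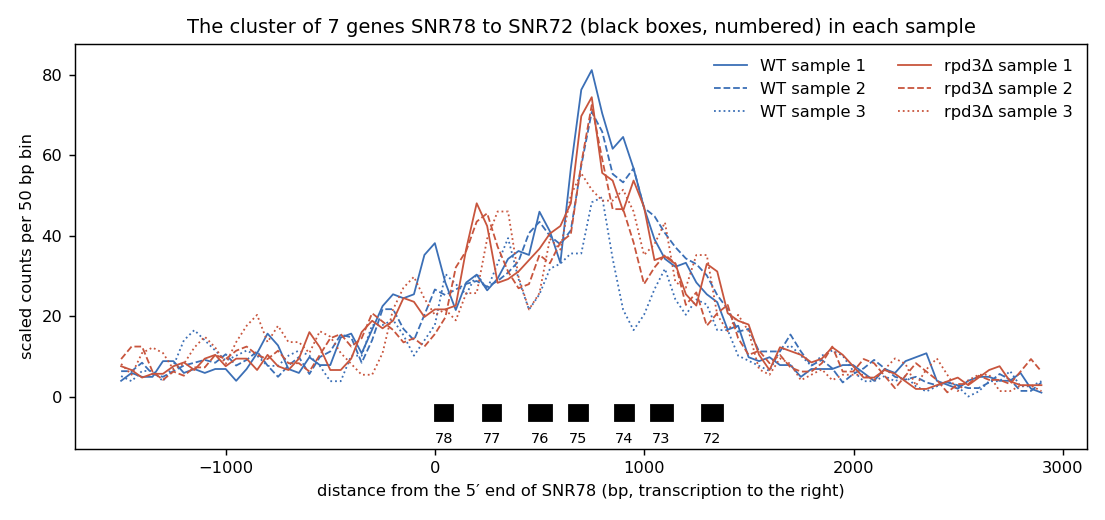
Scaled counts per 50 bp bin (vertical) along the cluster of 7 genes, as distance in bp from the 5′ end of SNR78 (horizontal), with 1 line per sample and black boxes for the genes numbered 78 to 72. All 6 samples rise over the cluster to their highest point near SNR75, and WT and rpd3Δ lines cross repeatedly.

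Intronic snoRNA genes cannot be separated from their hosts by position, so each was read together with the coding gene that contains it. Of the 8 host gene bodies, 3 were called higher in rpd3Δ (IMD4, ASC1 and RPS22B) and 0 lower, beside the 3.73% called higher over all bodies; of their upstream windows 0 were called. The snoRNAs inside these 3 had the highest fold changes of the class, but none passed the test.

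IMD4 encodes an inosine monophosphate dehydrogenase and holds SNR54, a box C/D gene. Over the IMD4 body (chromosome XIII, 162194 to 164176) scaled counts per bin were 13.8, 13.0 and 13.8 in WT but 19.9, 20.4 and 21.0 in rpd3Δ. These groups did not overlap, with a log2 fold change of 0.60 ± 0.0912 (SE, adjusted p = 1.24e-05 in edgeR's quasi-likelihood test). SNR54 itself, covered by 1 bin, had 14.7, 14.0 and 10.2 in WT and 17.9, 18.6 and 28.4 in rpd3Δ, a log2 fold change of 0.68 ± 0.350 with an adjusted p of 0.269.

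Along IMD4, the part before SNR54 was at 13.4 ± 0.410 in WT and 15.6 ± 1.74 in rpd3Δ, and the longer part after it at 13.6 ± 0.752 and 22.6 ± 1.31 (SD, n = 3), the last part 1.66 times as high in rpd3Δ. The groups did not overlap in any of the 3 stretches. IMD4 has the closely related copies IMD2 and IMD3, and how reads with several matches were placed is not stated, so the signal is uncertain as to the copy.

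ASC1, which encodes the ribosome-associated protein whose human counterpart is RACK1, holds SNR24 (U24). The ASC1 body had 13.3, 15.7 and 17.3 scaled counts per bin in the WT group against 23.4, 18.6 and 19.8 in rpd3Δ, with no overlap and a log2 fold change of 0.42 ± 0.110 (adjusted p = 0.0104, edgeR's quasi-likelihood test). SNR24, covered by 1 bin, had 15.7, 18.2 and 17.8 in WT and 33.9, 31.1 and 21.7 in rpd3Δ. Its groups did not overlap and the log2 fold change of 0.76 ± 0.312 was the largest of all 80 bodies, but the adjusted p was 0.138. When every bin that touches the gene was counted, it became 0.87 with an adjusted p of 0.00682, the lowest of 15 alternatives, whose highest was 0.491.

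RPS22B encodes a small-subunit ribosomal protein and holds SNR44, a box H/ACA gene, on chromosome XII right of the rDNA. SNR44 had 24.9, 22.1 and 24.8 scaled counts per bin in the WT group against 33.0, 35.2 and 28.8 in rpd3Δ, with no overlap, a log2 fold change of 0.45 ± 0.179 and an adjusted p of 0.131. The RPS22B body had 24.6 ± 1.67 in WT and 31.7 ± 2.38 in rpd3Δ (SD, n = 3), a log2 fold change of 0.37 (adjusted p = 0.0172). RPS22B has the paralog RPS22A, so its coding reads are uncertain as to the copy.

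The background around genes also differed between genotypes in places, and its part in these results was not tested beyond the values given here. Of the 237 gene bodies called higher, 111 lay on chromosome XII, on both sides of the rDNA. Right of the rDNA, 70 of 308 gene bodies (22.7%) were called higher, with a median log2 fold change of 0.26. With the mean signal outside regions in the surrounding 20 kb as an offset, RPS22B was at a log2 fold change of 0.12 (adjusted p = 0.631) and ASC1 to 0.21 (adjusted p = 0.356), whereas IMD4 was at 0.61 (adjusted p = 6.81e-06). With total-signal scaling, ASC1 and RPS22B were at -0.079 and -0.14 and IMD4 at 0.09, where the median over all gene bodies was -0.50. Over 15 alternatives the adjusted p ran from 0.00437 to 0.607 for ASC1, from 0.00807 to 0.631 for RPS22B and from 7.18e-08 to 0.486 for IMD4, which was called in 14 of them. The ASC1 call also ended without the first WT sample (adjusted p = 0.143) or the first rpd3Δ sample (0.0863), and the RPS22B call without the first (0.0995) or second WT sample (0.107), or without rpd3Δ sample 2 (0.166).

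The other 5 hosts were not called. NOG2, a GTPase gene of large-subunit assembly that holds SNR191, had a log2 fold change of 0.33 with an adjusted p of 0.0525, and passed with the local offset (0.36, adjusted p = 0.0361) and without the first rpd3Δ sample (adjusted p = 0.0341); over 15 alternatives the adjusted p ran from 0.0341 to 0.227. Its SNR191 body was at 8.84 ± 0.835 scaled counts per bin for WT and 8.69 ± 0.411 in rpd3Δ, while the host parts on both sides had non-overlapping groups with rpd3Δ higher. For RPL7A and RPL7B, paralogs that encode the same large-subunit protein and hold SNR39 and SNR59, the values were 0.19 and 0.12, and their own snoRNAs had -0.21 and 0.28. The copies of host and snoRNA are closely alike, so these values are uncertain as to the copy. TEF4 and EFB1, genes of translation elongation factor subunits that hold SNR38 and SNR18, had 0.11 and -0.05, and their snoRNAs 0.42 and -0.28.

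**Figure D5:**
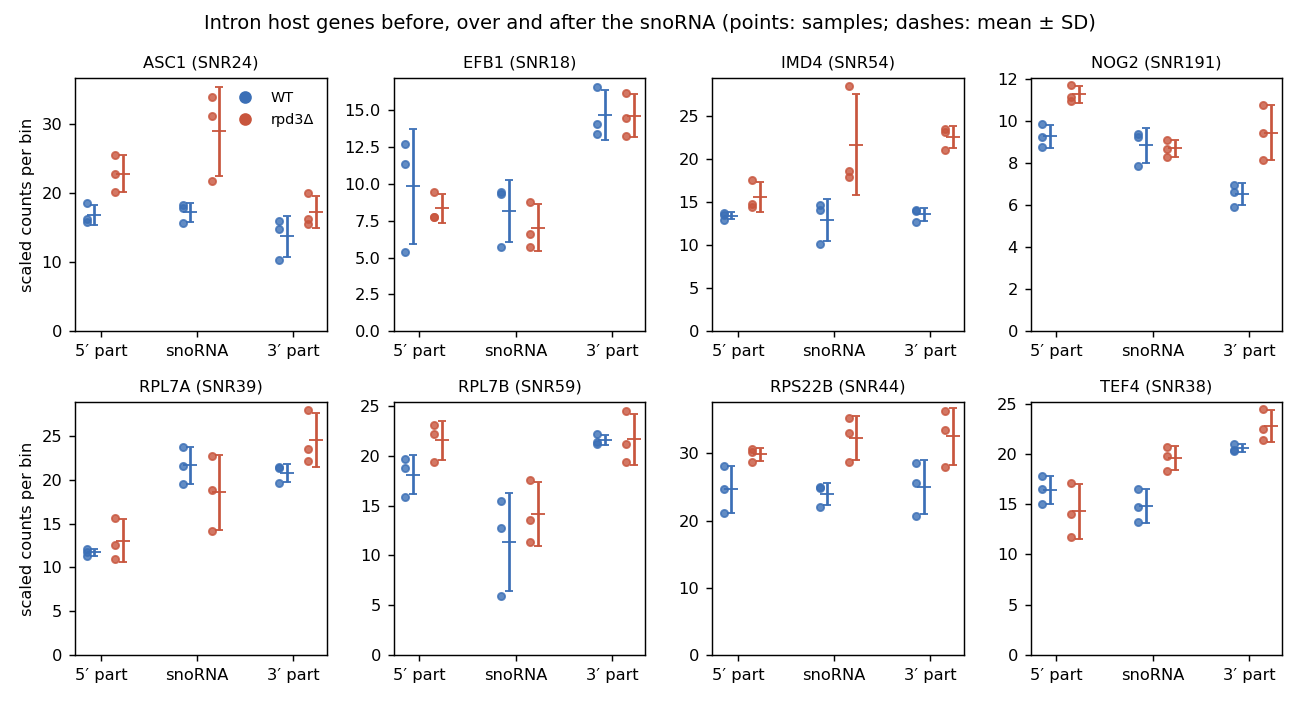
Scaled counts per bin (vertical, from 0) in the part of each host gene before the snoRNA, over the snoRNA and after it, with points for the 3 samples of each genotype and dashes for mean ± SD. The parts of IMD4 and of ASC1 before and over the snoRNA show rpd3Δ above WT in every sample, while EFB1 and RPL7B overlap in all 3 parts.

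The genes transcribed by RNA polymerase III were considered separately. SNR6, the U6 snRNA gene on chromosome XII left of the rDNA, had 16.6, 13.7 and 14.6 scaled counts per bin in the WT group against 21.2, 25.9 and 23.0 in rpd3Δ. Its groups did not overlap, the log2 fold change was 0.65 ± 0.261 and the adjusted p was 0.132 in edgeR's quasi-likelihood test. Over its local median it was at 1.23 ± 0.186 in WT and 1.49 ± 0.0732 in rpd3Δ. Chromosome XII held 111 of the 237 gene bodies called higher. SNR52, the snoRNA gene that RNA polymerase III transcribes, had 14.7, 16.8 and 11.4 in WT and 19.8, 14.5 and 12.2 in rpd3Δ, with overlapping groups and a log2 fold change of 0.10 ± 0.361. Its level was 1.13 ± 0.218 and 1.17 ± 0.289 times the local median, with 10 of the 51 independent genes lower.

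The snoRNAs that act in precursor cleavage had intermediate to high levels and no call. SNR17A and SNR17B encode U3, which is needed for release of the small-subunit RNA, in near-identical copies, so their values are uncertain as to the copy. SNR17A was at 2.72 ± 0.277 times the local median in WT and 2.76 ± 0.145 in rpd3Δ, and SNR17B at 1.70 ± 0.169 and 1.85 ± 0.125, with log2 fold changes of 0.20 in both and adjusted p of 0.339 and 0.487. SNR30, the essential box H/ACA RNA, was at 2.72 ± 0.0915 and 2.51 ± 0.341, and SNR10 at 1.78 ± 0.301 and 1.72 ± 0.205. Their log2 fold changes were -0.06 ± 0.123 and 0.04 ± 0.217, and both overlapped between genotypes.

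Genes of the machinery that makes and uses snoRNAs were read from the same fit. Among 26 protein genes of the snoRNA particles, their assembly and snoRNA transcription ends, 3 bodies were called higher and 0 lower. The shares over all gene bodies were 3.73% and 3.06%. The median log2 fold change of the 26 was 0.07. Of their upstream windows 0 were called, against 1.58% of all windows in either direction. The 3 called bodies were NOP56, a core protein of box C/D particles (0.34, adjusted p = 0.0336), CBF5, the pseudouridine synthase of box H/ACA particles (0.40, adjusted p = 0.00580), and SEN1, the helicase of snoRNA termination (0.41, adjusted p = 0.000705). All 3 are found right of the rDNA on chromosome XII, where 22.7% of bodies were called higher. With the local offset their log2 fold changes were 0.04, -0.10 and 0.13 (adjusted p = 0.911, 0.662 and 0.463). With total-signal scaling they were at -0.17, -0.11 and -0.10, where the median over all gene bodies was -0.50.

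The call of NOP56 also ended without the first or second WT sample or the first or second rpd3Δ sample (adjusted p = 0.206, 0.0799, 0.0594 and 0.176), and that of CBF5 without the third rpd3Δ sample (0.0612). Over 15 alternatives the adjusted p ran from 0.0172 to 0.911 for NOP56, from 0.00202 to 0.662 for CBF5 and from 0.000113 to 0.463 for SEN1. Of the 4 transcription factors TBF1, REB1, RAP1 and MCM1, which bind snoRNA or ribosomal gene promoters among others, the RAP1 body was called higher, beside 3.73% of all bodies. Its log2 fold change was 0.32 (adjusted p = 0.0345). Over 15 alternatives the adjusted p ran from 0.0151 to 0.409, the highest with the local offset. With total-signal scaling RAP1 was at -0.19, where the median over all gene bodies was -0.50. Leaving out the third WT or the first rpd3Δ sample kept the RAP1 call, and leaving out any other sample ended it. None of the 5 single-copy noncoding RNA genes LSR1, SCR1, RPR1, NME1 and TLC1 was called in either window. Over all genes 6.79% of bodies and 1.58% of upstream windows were called. LSR1, the U2 snRNA gene, was at 2.82 ± 0.308 times the local median in WT and 2.93 ± 0.383 in rpd3Δ, a level within the range of the snoRNA clusters and above all 5 spliceosomal entries among the genes studied.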

How the data were processed

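Reads were processed with Bowtie2, SAMtools and bedtools on build R64, per the submitters' processing notes. Not given in the sources used here: tool versions, filters and the treatment of multiply matching reads. Each deposited file lists read counts in 241434 bins of 50 bp on 16 nuclear chromosomes, not normalized, with a read counted in every bin it touches. The authors' deposited columns of covered bases, bin length (whole numbers of another kind) and covered fraction were not used.

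Genes came from the RefSeq table of R64, with strand read from locus tags. Counts of bins centred in each gene body or 500 bp upstream window were summed, and windows with a mean under 10 were left out. Library size was set by TMM over 1192 background bins of 10 kb outside the rDNA. rpd3Δ and WT were compared with edgeR 4.0.16 (quasi-likelihood, R 4.3.3) over all genes, Benjamini-Hochberg adjusted at 0.05; DESeq2 1.42.0 was an alternative. Python 3.11.15 made the tables. The tests were checked on simulated counts. WT samples 1 and 2 were close but differed beyond counting error (corrected chi-square per degree of freedom 1.25, p = 9.86e-09) and were counted as 2. The corrected chi-square per degree of freedom for rpd3Δ samples 2 and 3 was 1.31. Tested bodies held a mean of 11 to 372 counts per sample. The main test did not pair samples by replicate number. Deviations of same-numbered samples correlated at 0.29, -0.17 and 0.44, and those of differently numbered samples between -0.52 and 0.44. The first rpd3Δ sample correlated at 0.29 and 0.44 with the first and second WT samples and at -0.52 with the third. These values do not settle whether the numbers pair the samples.

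Members, lists and tests were chosen with earlier results of these data known. The genes named are those past the threshold, the 10 highest bodies, all intronic genes with hosts, all clusters, 6 fixed members (SNR6, SNR52, SNR17A, SNR17B, SNR30 and SNR10) and called list genes. SNR78, SNR69, SNR13, the genes with unadjusted p under 0.05, the genes below their local median and NME1 were named after their values were seen, and the tRNA and short coding gene sets, host parts and whole-cluster values were added then. A planned motif search was not done, as no sequence was used here.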

Additional observations from a re-analysis of the deposited data

How the results depend on the processing

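Of 224 alternative values for the counts, medians and levels, 191 stayed close and 33 moved. Of 962 values for single genes, 803 were counted as keeping direction and side of the threshold. Any value without an adjusted p was counted as kept. Scaling on total signal with the rDNA moved most: the median of all genes shifted to -0.50 (bodies) and -0.57 (upstream), 32 of 80 snoRNA and snRNA bodies and 26 of 81 upstream windows were called lower (all genes: 4401 of 6346 and 3330 of 6373), medians became -0.50 (all such bodies), -0.52 (independent), -0.41 (clustered) and -0.17 (intronic), upstream -0.52, -0.53, -0.51 and -0.24, and the log2 fold changes of ASC1, CBF5, NOP56, RAP1, RPS22B and SEN1 turned to -0.079, -0.11, -0.17, -0.19, -0.14 and -0.10; IMD4 was at 0.09 (adjusted p = 0.486). This scaling changes only the library sizes and moves all genes by a similar amount, so it cannot test the order of the classes. The local offset gave 0.17 for intronic bodies, 0.18 for clustered upstream windows and -0.10 for CBF5. Counting every overlapping bin gave 1 higher body (SNR24). The upstream call was 0 with TMM or DESeq2 size factors over the windows, the local offset, DESeq2, the first 2 WT samples summed or a 250 bp window; TMM over the windows also changed all upstream calls from 20 higher and 81 lower to 71 and 63. A 1000 bp window gave 2 higher (SNR6 and SNR24) and an intronic median of 0.13. With a 10 kb local median, independent rpd3Δ bodies were at 1.64 and intronic WT upstream windows at 1.48, and 1 of 8 intronic bodies reached 2 times it; at 3 times the local median 15 genes overlapped a region. Leaving out 1 sample gave 0 to 1 lower bodies (SNR37, without the first rpd3Δ sample), 0 to 1 lower upstream windows (SNR69, without the same sample), intronic body medians of 0.17 to 0.42 and independent upstream medians of -0.11 to 0.023. With replicate number as a block, all-gene calls were 338 higher and 245 lower bodies and 54 and 156 upstream windows; among the genes studied 0 bodies and 1 upstream window were called, and NOG2 passed (adjusted p = 0.0357). The cause of these changes was not tested.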
